A study of Homo sapiens with 6 samples.

Results

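Potassium channel genes were taken as every gene whose symbol starts with KCN and ends in letters and a number, with antisense and intronic RNAs left out. 84 such genes were found among 22465 genes with a symbol of their own, on 85 of the 70523 rows of the array table. KCNC4 had 2 rows, and the row with the higher mean over the 6 arrays was used for it. The data were log2 signals of AC16, a human cell line of adult ventricular cardiomyocyte origin that was made by fusing heart cells with transformed fibroblasts. The cells of 3 hypothermia samples were held at 28 °C for 6 h, and those of 3 control samples stayed at 37 °C over the same 6 h. All were grown in DMEM/F-12 with serum under 5% CO2, and each sample was 1 array. The sources do not name separate cultures for the replicates. The p-values therefore cover the spread among these arrays only, and part or all of that spread may be technical.

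Potassium channels let potassium ions leave or enter the cell along their gradient, and so set the resting potential and end each action potential of a heart muscle cell. Their pore subunits fall into voltage-gated, calcium- or sodium-activated, inward rectifier and 2-pore families. Other members do not conduct alone. Modulatory subunits (the KCNF, KCNG, KCNS and KCNV genes) have the voltage-gated fold but make no channel of their own, and change the gating of the KCNB channels they join. Auxiliary subunits (KCNAB, KCNE, KCNIP and KCNMB) bind to pore subunits and alter their gating or their transport to the membrane. By these roles the 84 genes comprised 24 voltage-gated, 10 modulatory, 7 calcium- or sodium-activated, 13 inward rectifier, 14 2-pore and 16 auxiliary genes.

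Few potassium channel genes differed between 28 °C and 37 °C. KCNF1, a modulatory subunit gene, was the only member that passed an adjusted p under 0.05 in limma, and it was higher at 28 °C. It did not pass in the methods' t-test (adjusted p = 0.126) or with the brightness of background probes as a covariate (adjusted p = 0.123, limma). 1 of 84 is 1.19%, against 0.227% of all 70523 rows called higher. None of the 84 was lower by limma or by the random variance model after Benjamini-Hochberg adjustment, against 0.591% of all rows called lower by limma. At an unadjusted p under 0.05 in limma 6 members were higher and 1 was lower. These are 7.14% and 1.19% of the 84, against 5.41% and 6.08% of all rows. The higher share was thus close to that of all rows and the lower share was below it. The values of the 3 hypothermia arrays lay above all 3 control arrays for 10 members (11.9%, against 9.38% of all rows) and below them for 2 (2.38%, against 8.49% of all rows).

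The 250 bases upstream of the start site are shown for the members with an unadjusted p under 0.05 that had a promoter entry in the RefSeq table used here (GRCh38.p14). These are KCNF1 (chr2:10911684-10911933, plus strand), KCNG2 (chr18:79797688-79797937, plus strand), KCNJ14 (chr19:48455324-48455573, plus strand) and KCNE5 (chrX:109625173-109625422, minus strand). KCNE4, KCNS1 and KCNG1 are named only. Capitals mark matches, on either strand, to 5 motifs. They are the cyclic AMP response element TGACGTCA, the GC box GGGCGG, the EGR site GCGNGGGCG, the AP-1 site TGANTCA and the TATA box TATAAA. An EGR site and a GC box can overlap.
KCNF1: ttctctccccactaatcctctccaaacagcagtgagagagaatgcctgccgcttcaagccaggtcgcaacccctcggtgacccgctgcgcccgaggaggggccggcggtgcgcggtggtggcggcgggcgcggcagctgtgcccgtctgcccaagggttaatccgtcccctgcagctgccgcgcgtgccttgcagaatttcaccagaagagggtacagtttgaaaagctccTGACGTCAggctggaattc
KCNG2: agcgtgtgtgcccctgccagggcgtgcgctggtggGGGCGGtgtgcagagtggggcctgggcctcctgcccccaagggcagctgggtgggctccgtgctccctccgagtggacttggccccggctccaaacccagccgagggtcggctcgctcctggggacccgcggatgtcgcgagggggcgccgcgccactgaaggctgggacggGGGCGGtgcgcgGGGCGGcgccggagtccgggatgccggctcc
KCNJ14: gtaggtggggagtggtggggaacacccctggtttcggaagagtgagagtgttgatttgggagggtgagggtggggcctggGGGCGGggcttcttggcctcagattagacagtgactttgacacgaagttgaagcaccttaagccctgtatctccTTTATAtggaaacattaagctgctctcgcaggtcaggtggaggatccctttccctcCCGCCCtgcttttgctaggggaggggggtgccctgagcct
KCNE5: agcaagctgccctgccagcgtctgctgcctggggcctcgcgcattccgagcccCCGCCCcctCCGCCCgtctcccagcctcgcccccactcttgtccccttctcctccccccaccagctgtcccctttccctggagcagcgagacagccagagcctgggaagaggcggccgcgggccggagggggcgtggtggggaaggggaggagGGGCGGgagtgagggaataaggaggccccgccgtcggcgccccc
The only capitals in the KCNF1 window are those of the cyclic AMP response element, 19 to 12 bases before the start site. This element was found in 1.65% of the 35116 promoter windows in the table, and in 1 of the 100 windows of the 65 members that had an entry. The KCNG2 and KCNE5 windows each held 3 GC boxes, and the KCNJ14 window held 2 GC boxes and a TATA box. Of all windows, 42.6% held a GC box, 10.7% a TATA box, 8.41% an EGR site and 6.57% an AP-1 site. Neither of the last 2 motifs was in the 4 windows shown. A match is a description of the letters and not a site that was measured.

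The modulatory subunit genes had the highest median difference of the 6 families, 0.15 on the log2 scale. KCNF1, which encodes a subunit without a current of its own, had log2 signals of 4.80, 4.87 and 4.85 at 28 °C, against 4.45, 4.40 and 4.46 at 37 °C. All 3 hypothermia arrays lay well above the 3 control arrays, and the spread within each group was small beside the gap. The means were 4.84 ± 0.0354 at 28 °C and 4.44 ± 0.0323 at 37 °C (SD, n = 3 each). The difference (28 °C minus 37 °C) was 0.40 on the log2 scale, with a standard error of 0.0606 and a 95% interval of 0.26 to 0.54, a 1.32-fold change (adjusted p = 0.0308, limma). KCNF1 did not stay past the threshold when an array was left out, except without control replicate 3 (adjusted p = 0.0393 there). The adjusted p was 0.111, 0.163 and 0.137 without hypothermia replicate 1, 2 and 3, and 0.13 and 0.0936 without control replicate 1 and 2, while the difference ranged from 0.39 to 0.42. Fewer rows passed in general in the fits where KCNF1 did not. Of all rows 60 to 86 were higher and 112 to 208 lower there, against 160 and 417 with all 6 arrays. The arrays also carry 23 rows of background probes, sorted by GC content. The 11 brighter ones had a median difference of 0.18, all of them higher at 28 °C without passing the test, and their part in the differences of the modulatory genes was not tested.

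KCNG2 had 6.18, 6.17 and 6.15 at 28 °C, against 5.83, 5.73 and 5.98 at 37 °C. The groups did not overlap, and control replicate 3 was the control nearest to the hypothermia arrays. The difference was 0.32 (standard error 0.0769, adjusted p = 0.141, limma), which did not pass. KCNS1 had 5.23, 5.21 and 5.18 at 28 °C, against 4.94, 4.87 and 5.00 at 37 °C, again without overlap. Its difference was 0.27 (standard error 0.0643, adjusted p = 0.141, limma). KCNG1 had 6.05, 6.01 and 5.99 at 28 °C, against 5.81, 5.75 and 5.92 at 37 °C. Its groups did not overlap either, with a difference of 0.19 and an adjusted p of 0.335 from limma. All 3 encode subunits that join KCNB channels.

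In the other 6 modulatory genes the groups overlapped. KCNG3 had 7.19, 7.23 and 7.36 at 28 °C, against 7.01, 6.93 and 7.34 at 37 °C, so control replicate 3 stood with the hypothermia arrays. KCNG4 had 4.60, 4.56 and 5.03 at 28 °C, against 4.57, 4.63 and 4.59 at 37 °C, and 1 hypothermia array made its difference of 0.14. KCNV1, KCNS3, KCNS2 and KCNV2 had differences of 0.10, 0.08, 0.07 and 0.05, with adjusted p-values from 0.606 to 0.853 in limma. All 10 modulatory genes had a higher mean at 28 °C, also after quantile normalization and after centring of each array, but 9 of 10 did without hypothermia replicate 3 and 6 of 10 had a positive difference with the background covariate. 4 of the 10 were higher at an unadjusted p under 0.05, against 5.41% of all rows, and 3 with the covariate, against 4.43% of all rows in that fit. KCNB2, a pore subunit that these proteins can join, had 3.27, 3.40 and 3.64 at 28 °C, against 3.52, 3.25 and 3.37 at 37 °C, with full overlap and a difference of 0.06 (95% interval -0.20 to 0.31).

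**Figure D1:**
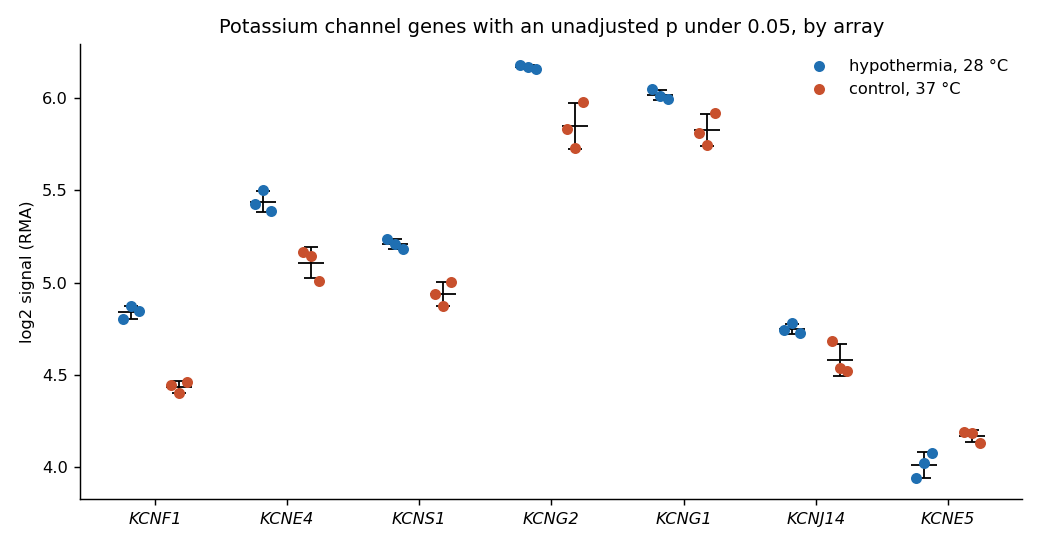
Log2 signal (RMA) of the 7 potassium channel genes with an unadjusted p under 0.05 in limma, by array. Blue points are hypothermia arrays (28 °C), red points are control arrays (37 °C), and bars are the mean ± SD of 3. The groups do not overlap in any of the 7, and KCNF1 alone passed the adjusted threshold.

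Auxiliary subunit genes held the member with the second lowest p-value, KCNE4, and the only member that was lower at an unadjusted p under 0.05, KCNE5. KCNE4, whose product is known to inhibit KCNQ1 and some other voltage-gated channels, had 5.42, 5.50 and 5.39 at 28 °C, against 5.17, 5.14 and 5.01 at 37 °C. The groups did not overlap, and here control replicate 3 was the lowest array. The difference was 0.33 (standard error 0.071, 95% interval 0.17 to 0.50, adjusted p = 0.104, limma), which missed the threshold. KCNE5, a further KCNQ1 regulator on the X chromosome, had 3.94, 4.02 and 4.08 at 28 °C, against 4.19, 4.19 and 4.13 at 37 °C. Its difference was -0.16 (standard error 0.0656, adjusted p = 0.418, limma), without overlap between the groups. KCNE1, the partner of KCNQ1 in the slow delayed rectifier, had 3.22, 3.17 and 3.27 at 28 °C, against 3.20, 3.25 and 3.41 at 37 °C, a difference of -0.07 with overlap. The 5 KCNE genes thus differed in sign, with a higher mean at 28 °C in 3. KCNIP3, a calcium-binding protein of the KCND channels, had 6.50, 6.52 and 6.56 at 28 °C, against 6.53, 6.31 and 6.54 at 37 °C. The arrays of its groups overlapped, with a difference of 0.06 (95% interval -0.12 to 0.25). Over the 16 auxiliary genes the median difference was 0.03, and -0.002 after centring of each array.

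Genes of the currents that repolarize heart muscle cells did not pass. A list of 20 such genes was used, of which 17 had a row here. None was higher or lower at an adjusted p under 0.05 in limma or the random variance model. In limma 0.227% of all rows were higher and 0.591% lower, so none of 17 is close to those shares. The methods' t-test passed no row of the array table and could not single out these genes. None had an unadjusted p under 0.05 in limma either, against 5.41% of all rows higher and 6.08% lower. The groups overlapped for all 17, while of all rows 9.38% were higher without overlap and 8.49% lower without overlap. The median difference of the 17 genes was 0.07, with a range of -0.07 to 0.20. KCNH2, the pore of the rapid delayed rectifier, had 5.79, 5.78 and 5.75 at 28 °C, against 5.61, 5.62 and 5.78 at 37 °C. The first 2 controls were low and the third was level with hypothermia, and the difference was 0.10 (95% interval -0.06 to 0.27, adjusted p = 0.618, limma). KCNQ1, the pore of the slow delayed rectifier, had 5.13, 5.09 and 5.22 at 28 °C, against 4.99, 4.96 and 5.13 at 37 °C, and a difference of 0.12 (95% interval -0.05 to 0.29). KCNJ2, a pore of the inward rectifier current that holds the resting potential, had 2.96, 2.99 and 2.94 at 28 °C, against 2.84, 2.70 and 3.00 at 37 °C. Its difference was 0.12 (95% interval -0.08 to 0.32), and its highest array was a control. KCNJ11 and KCNJ8, the pores of channels closed by ATP, both had 0.07, with intervals of -0.15 to 0.30 and -0.08 to 0.22. KCND3 and KCNIP2, pore and partner of the transient outward current, had 0.09 each, and KCNA5, of the ultrarapid current, had 0.05. A difference of 0.5 in either direction was outside the 95% interval of all 17, as it was for 63338 of all 70523 rows. Of the 17, 15 lay above the median background row on all 6 arrays, and none above the upper quartile of background rows on all 6. KCNJ12 shares its row with KCNJ18 and was not used, and 2 further genes of the list were not analysed here.

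The 2-pore channels carry background currents that act at rest. Of their 14 genes none passed in limma or the random variance model after adjustment. Of all rows 0.227% were higher and 0.591% lower in limma, so none of 14 is close to those shares. The methods' t-test passed no row of the array table. The median difference of the 14 genes was 0.08. None had an unadjusted p under 0.05 in limma, against 5.41% of all rows higher and 6.08% lower. KCNK5, which is sensitive to acid, had 3.70, 3.75 and 3.82 at 28 °C, against 3.53, 3.60 and 3.69 at 37 °C. The groups touched without overlapping, with a difference of 0.15 (95% interval -0.01 to 0.31, adjusted p = 0.472, limma). KCNK2 and KCNK10 encode channels that open on warming and close in the cold. KCNK2 had 3.50, 3.52 and 3.38 at 28 °C, against 3.51, 3.62 and 3.51 at 37 °C, a difference of -0.08 (95% interval -0.24 to 0.08). KCNK10 had 2.97, 3.09 and 3.03 at 28 °C, against 2.98, 2.94 and 3.00 at 37 °C, a difference of 0.06 (95% interval -0.09 to 0.20). Both genes overlapped between groups and their measured differences had opposite signs. KCNK4, the remaining channel of that type, shares its row with CATSPERZ and was not used. KCNK6 and KCNK7, which were among the 10 members with the highest signal, had differences of 0.03 and 0.02 with overlap.

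Of the 13 inward rectifier genes, 1 (7.69%) was higher at an unadjusted p under 0.05 in limma, close to the 5.41% of all rows. None was lower, against 6.08% of all rows. The gene that was higher was KCNJ14. It had 4.74, 4.78 and 4.72 at 28 °C, against 4.68, 4.54 and 4.52 at 37 °C, a difference of 0.17 (standard error 0.0689, adjusted p = 0.405, limma). Of the 7 calcium- or sodium-activated genes none had an unadjusted p under 0.05 in limma, against the same shares of all rows. KCNMA1, the pore of the large-conductance calcium-activated channel, had 6.42, 6.47 and 6.43 at 28 °C, against 6.53, 6.51 and 6.39 at 37 °C. The groups overlapped, and its difference was -0.04 (95% interval -0.19 to 0.12). KCNN4, the intermediate-conductance channel, had 5.94, 5.83 and 5.99 at 28 °C, against 5.89, 5.89 and 5.81 at 37 °C, and a difference of 0.06. KCNN1, a small-conductance channel, had 5.27, 5.35 and 5.43 at 28 °C, against 5.11, 4.94 and 5.40 at 37 °C. Its control arrays spread over most of the range, with a difference of 0.20 (95% interval -0.06 to 0.47). Of the 24 voltage-gated genes none had an unadjusted p under 0.05 in limma, again against 5.41% of all rows higher and 6.08% lower. Their median difference was 0.06. KCNH1 had 5.91, 5.97 and 5.92 at 28 °C, against 6.03, 6.07 and 5.93 at 37 °C, a difference of -0.07. KCNQ5 had a difference of -0.08 and, beside KCNE5, was the other member whose hypothermia arrays all lay below the controls.

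**Figure D2:**
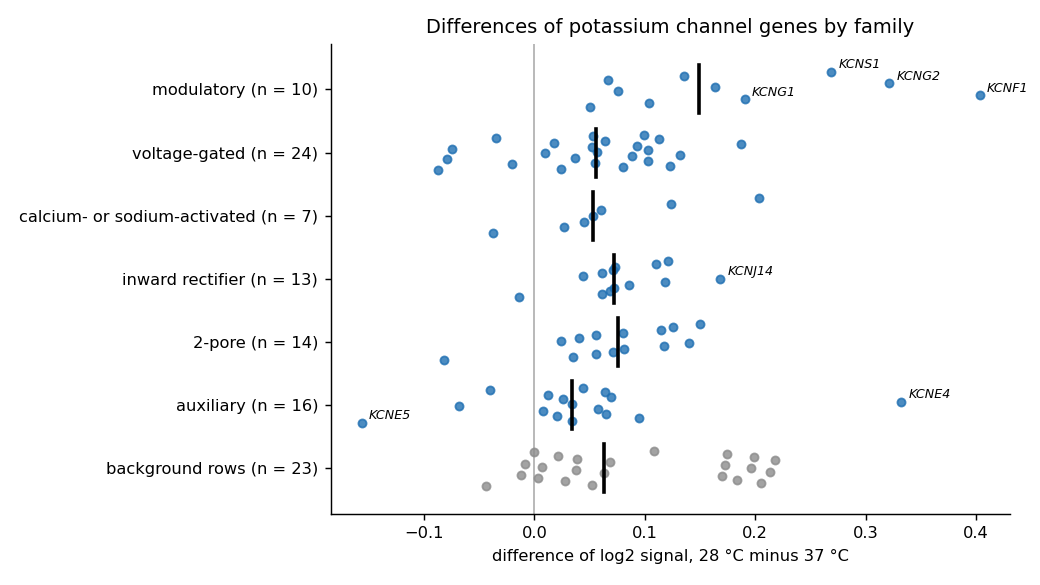
Difference of log2 signal (28 °C minus 37 °C) of each potassium channel gene, by family, with the 23 background rows of the arrays in the lowest line. Each point is 1 gene or row, vertical spread within a line has no meaning, and black bars are medians. The median is 0.15 for modulatory genes and 0.03 to 0.08 for the other families.

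How far the signals stood above background was judged against the 23 background rows, which carry GC numbers from 3 to 25 in their names. Their means ran from 1.76 to 10.9 with rising GC number. The base composition of the probes of each gene is not given in the sources used here, so no member could be set against the background row of its own GC content, and signals of different genes were not ranked as expression levels. The median background row was at 2.47 to 2.60 on the 6 arrays and the upper quartile at 5.59 to 5.99. Of the 84 members, 69 lay above the median background row on all 6 arrays and 11 lay at or below it on all 6. Among the 11 was KCNJ16, with 2.26, 2.40 and 2.41 at 28 °C, against 2.19, 2.27 and 2.25 at 37 °C, whose difference was 0.12 (adjusted p = 0.557, limma). The other 4 were KCNA4, KCNAB1, KCNC2 and KCND2. Only KCNG2, KCNG3, KCNIP3, KCNK6 and KCNMA1 lay above the upper quartile on all 6. KCNF1 had a mean above 15 of the 23 background rows, KCNE4 above 16, KCNS1 above 15 and KCNG2 above 17. Of all rows, 45034 lay above the median background row on all 6 arrays and 13095 above the upper quartile.

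A small shift towards higher values at 28 °C ran through the members, and the brighter background rows shifted with them. 73 of the 84 members (86.9%) had a higher mean at 28 °C, against 59.6% of all rows. After quantile normalization 66 had a higher mean, and after centring of each array 61. The median difference was 0.06 for the members and 0.03 for all rows. The 11 brighter background rows all had a higher mean at 28 °C, with a median difference of 0.18, and none passed in limma, at an adjusted p or at an unadjusted p under 0.05. The 12 dimmer ones had a median of 0.01. The mean of the brighter background rows was 6.40, 6.39 and 6.49 on the hypothermia arrays, against 6.20, 6.10 and 6.47 on the control arrays. Control replicate 3 was level with hypothermia there, as it was for many members. It was the highest control in 66 of the 84 members and exceeded the mean at 28 °C in 49. 62 members were above their own mean on that array, against 18 and 14 on control replicates 1 and 2, while the hypothermia arrays had 56, 57 and 70.

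With the mean of the brighter background rows of each array as a covariate, 40 of the 84 members had a positive difference and their median was -0.002. No member passed in that fit, where 66 of all 70523 rows were higher and 105 lower at an adjusted p under 0.05. At an unadjusted p under 0.05, 5 members (5.95%) were higher and none lower, against 4.43% and 5.26% of all rows. KCNF1 had 0.38 there (adjusted p = 0.123, limma), KCNE4 0.41 (0.117), KCNS1 0.22 (0.352) and KCNG2 0.22 (0.359). The modulatory genes had a median of 0.07 in that fit, with 6 of 10 positive, and the other families had medians of -0.02 to 0.04. Without control replicate 3 the shift was wider. The median was 0.11 for the members and 0.04 for all rows there. At an unadjusted p under 0.05, 16 members were higher and 1 was lower, against 11.1% and 8.27% of all rows in that fit.

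**Figure D3:**
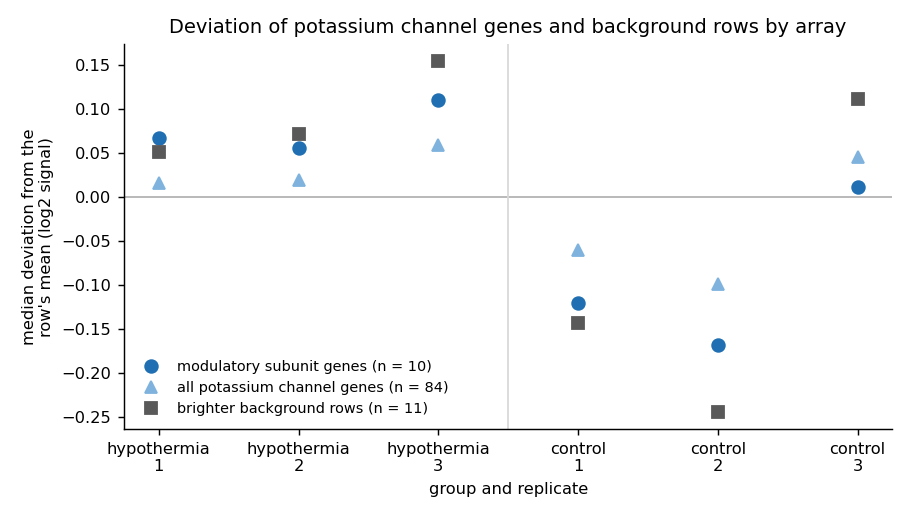
Median deviation from the row's own mean over the 6 arrays (log2 signal), for the 10 modulatory genes, all 84 potassium channel genes and the 11 brighter background rows, by group and replicate. Control replicates 1 and 2 lie below 0 in all 3 sets, and control replicate 3 lies above 0. For the modulatory genes it is at 0.01, below the hypothermia arrays at 0.07, 0.06 and 0.11. In the other sets it lies within the range of the hypothermia arrays.

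The median difference of the members was above 0 at each signal level. Members at or below the median background row (15 genes) had a median difference of 0.04, against 0.02 for all 22092 rows of that range. Those between the median and the upper quartile (61 genes) had 0.07, with 90.2% higher at 28 °C, against 0.05 and 66.5% for the 34000 rows of that range. The 8 members above the upper quartile had 0.06, with 6 of 8 higher, against -0.02 and 44.1% for 14431 rows. The differences of the members were narrow at each level. A 95% interval inside -0.5 to 0.5 was found for 83 of the 84 members and for 63338 of all 70523 rows. The exception among the members was KCNF1, whose interval reached 0.54.

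**Figure D4:**
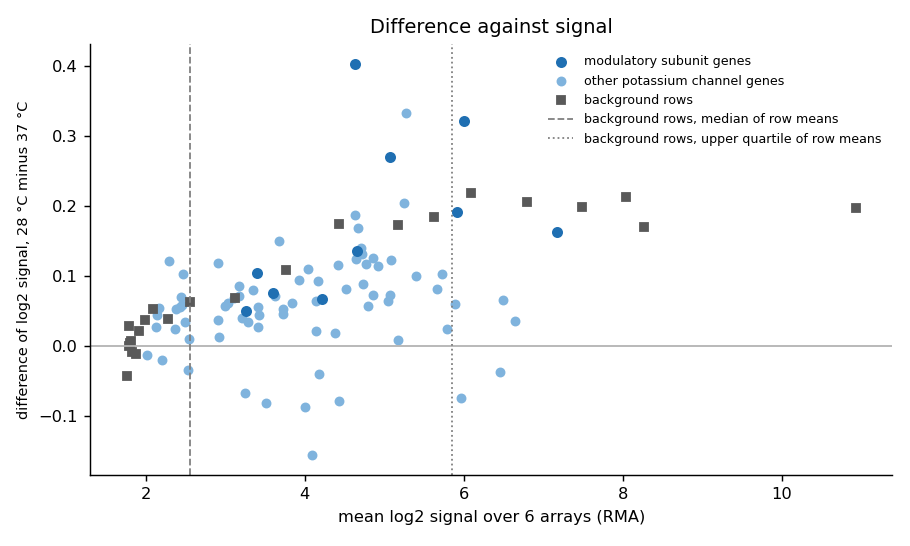
Difference of log2 signal (28 °C minus 37 °C) against mean log2 signal over the 6 arrays, for modulatory genes (dark blue), other potassium channel genes (light blue) and background rows (grey squares). The brighter background rows run at 0.07 to 0.22, and KCNF1, KCNE4, KCNG2 and KCNS1 lie above them.

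Genes that act with potassium channels but carry no KCN symbol were given by fixed lists. None passed an adjusted p under 0.05 in limma, against 0.227% of all rows higher and 0.591% lower. Of 14 accessory and regulator genes measured, 3 (21.4%) were higher at an unadjusted p under 0.05, against 5.41% of all rows. Their median difference was 0.06, against 0.03 for all rows. LRRC26, an auxiliary protein of the large-conductance channel, had the highest difference of this list, 0.35 (adjusted p = 0.28, limma). REST, a repressor of neuronal genes that include potassium channels, had -0.02. ABCC8 and ABCC9, the sulfonylurea receptors of channels closed by ATP, had 0.12 and 0.01. Of 7 genes of the sodium pump, 1 (14.3%, against 5.41% of all rows) was higher at an unadjusted p under 0.05, FXYD1 with 0.27 (adjusted p = 0.319, limma). FXYD1 encodes a regulator of the pump. Of 13 cation chloride cotransporters and their kinases, 2 (15.4%, against 6.08% of all rows) were lower at an unadjusted p under 0.05, both of them kinases, STK39 with -0.23 and WNK3 with -0.20 (adjusted p = 0.35 and 0.29, limma). Of the 3 pacemaker channel genes measured, HCN3 (1 of 3, against 5.41% of all rows) was higher at an unadjusted p under 0.05, with 0.17 (adjusted p = 0.432, limma).

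The labelled cell type was checked with marker genes. Of 10 cardiomyocyte markers measured, 8 lay above the median background row on all 6 arrays, and only NPPB lay above the upper quartile on all 6. RYR2 and TTN lay below the median background row on every array. Of 7 fibroblast markers, FN1, COL1A1, COL1A2 and THY1 lay above the upper quartile on all 6. The other fibroblast markers, LUM, PDGFRA and DCN, lay above the median background row on all 6 but above the upper quartile on no array. Of 4 leukocyte markers, CD68 alone lay above the upper quartile on all 6. Of 4 endothelial and 4 neuron markers none did. None of these markers passed an adjusted p under 0.05 in limma, against 0.227% of all rows higher and 0.591% lower. At an unadjusted p under 0.05 in limma, 1 of the 10 cardiomyocyte markers (10%) was higher, NPPA, against 5.41% of all rows. In bulk RNA, fewer cells with a transcript and less of it in each cell cannot be told apart. The files name no scan date or other batch.

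**Figure D5:**
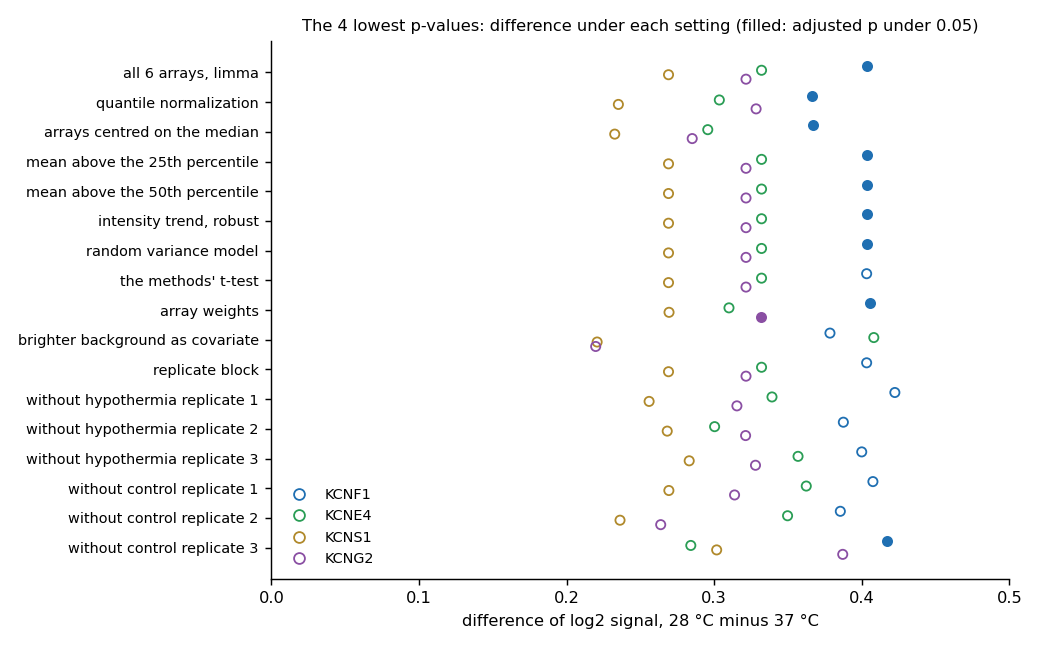
Difference of log2 signal (28 °C minus 37 °C) of KCNF1, KCNE4, KCNS1 and KCNG2 with all 6 arrays and under each alternative setting. Filled circles mark an adjusted p under 0.05. The differences stay above 0 in every setting shown, and KCNF1 is past the threshold with all 6 arrays and in 8 of the 16 alternatives. KCNG2 is past it with array weights only.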

How the data were processed

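Total RNA from hypothermia and control AC16 cells was hybridized to 6 Affymetrix arrays. The authors deposited log2 signals. Per the submitters' processing notes RMA was used, a method that removes background, brings the arrays to a common scale and combines probes into 1 value per row. Neither its version nor its settings are given in those notes. The signals were used as deposited. No pair of arrays was identical over all rows of the table, and no member row repeated all 6 values of another row. The number of arrays limits the precision.

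A table of platform annotation gave 1 gene symbol for 23781 rows, several for 1543 and none for 45199. All 84 member symbols were current RefSeq symbols. The test was that of limma (version 3.58.1, R version 4.3.3), run on all 70523 rows with lmFit and eBayes and a term for group. Differences are 28 °C minus 37 °C, with Benjamini-Hochberg adjustment across the whole table. An adjusted p under 0.05 was the threshold. The fits were tested on simulated data. The methods name the random variance model and Student's t-test, and both were alternatives. So were other scalings, filters, array weights, a background covariate, a replicate block, other rows per gene, another threshold and leaving out each array.

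Named genes were those past the threshold, the 10 with the lowest p, the 10 with the highest mean, and at most 8 further genes of cardiac repolarizing currents and temperature-gated channels. KCND3 and KCNIP2 of those currents were named beyond the 8. KCNB2, KCNQ5, the remaining modulatory genes and the genes named from the other lists were picked once their values had been seen. The members and lists were chosen with earlier results of these data known. Promoter sequences came from RefSeq (GRCh38.p14). The motifs were chosen after the results had been seen.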

Additional observations from a re-analysis of the deposited data

How the results depend on the processing

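The count of potassium channel genes past the threshold was 1 higher and 0 lower. It stayed at that after quantile normalization, centring of each array, filters at the 25th percentile or the 50th percentile of mean signal, an intensity trend, the random variance model, an adjusted p under 0.1 and other rows for KCNC4. With array weights 379 of all rows were higher and 1107 lower, against 160 and 417 without them. The count of members was 2 higher there, where KCNG2 was added (0.33, adjusted p = 0.0403, limma). It was 0 higher in the methods' t-test after adjustment (KCNF1 adjusted p = 0.126), where no row of the table passed, and 0 with the brighter background as a covariate. Without adjustment the methods' t-test had 7 members higher and 2 lower at a p under 0.05, and limma 6 and 1, a count added after seeing the data. For the t-test these are 8.33% and 2.38% of the members, against 4.93% and 5.26% of all rows. For limma they are 7.14% and 1.19%, against 5.41% and 6.08% of all rows. Leaving out 1 array gave 0 to 1 higher and 0 lower, against 60 to 214 higher and 112 to 799 lower over all rows. The median difference of the members was 0.0351 after quantile normalization, 0.0282 after centring and -0.00198 with the covariate, and 0.0431 to 0.108 when 1 array was left out. The cause of these changes was not tested. With the replicate block 0 members passed (KCNF1 adjusted p = 0.0862, limma), and over all rows 122 were higher and 304 lower, against 160 and 417 without it. The labels share only the replicate number. The correlations of the deviations of same-numbered arrays were -0.0817, 0.114 and 0.215 over all rows, so the numbers were not taken to pair the samples.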
